A study of Mus musculus with 6 samples.

Results

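Cyclophosphamide (CPP) reaches the bladder as reactive products, and 50 mouse genes that oxidise, reduce, conjugate or export such compounds were followed here across the cells of the bladder mucosa. The genes were a chosen list, matched by Ensembl ID, and fall into 7 roles: 11 for aldehydes and carbonyls, 7 of phase I metabolism, 12 glutathione transferases, 6 for glutathione supply and peroxidases, 8 of the NRF2 axis, 4 for conjugation and export, and 2 for the removal of reactive oxygen. Of the 50, 49 were listed in all 6 libraries, among 14338 genes listed in all of them. The other gene, Cyp4b1, was missing from the tables of 2 libraries and entered no test.

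CPP is a prodrug that cytochrome P450 enzymes of the liver activate. Its activated form, 4-hydroxy-cyclophosphamide, is in equilibrium with aldophosphamide, which breaks down to phosphoramide mustard, an alkylating agent, and to acrolein, an unsaturated aldehyde that is excreted in urine and injures the urothelium. Aldehyde dehydrogenases can oxidise aldophosphamide to an inert acid, aldo-keto reductases reduce reactive aldehydes to alcohols, and glutathione traps acrolein with the help of glutathione transferases. The transcription factor NRF2 (Nfe2l2), which KEAP1 holds back until electrophiles modify it, drives many of these genes.

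The data are droplet-based single-cell RNA counts of the bladder mucosal layer of 8-week-old wild type C57BL/6 mice. Healthy mice were compared with mice under acute injury, collected 48 hours after CPP, and under chronic injury, collected on day 11 of a course of 4 rounds of CPP. By the authors' methods the chronic bladders were also taken 48 hours after the last dose, and each chronic dose was lower than the acute one. Each condition had 2 libraries, which may each hold cells of several mice, so that p-values of injury comparisons measure the spread between libraries. Classes were compared within libraries, and those p-values measure how the class differences vary from library to library. Cells were classed here from the counts, with the detoxification genes kept out of the clustering. The classes were 5879 basal, 24530 intermediate and 2473 superficial urothelial cells, 5292 fibroblasts, 4506 myofibroblasts, 966 macrophages and 495 endothelial cells. The 3 urothelial layers hold non-cycling cells only. Another 4320 cycling urothelial cells were set apart, with 272 and 417 in healthy, 1569 and 732 in acute and 928 and 402 in chronic libraries.

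Levels are counts of unique molecular identifiers (UMIs, a count of captured RNA molecules) summed per library and class, and scaled to the same library total (CPM) with TMM factors, which correct for composition. Values of the 6 libraries are given in the order healthy 1, healthy 2, acute 1, acute 2, chronic 1, chronic 2. The libraries held 54604109 to 111985678 UMIs, and the class sums of the 5 main classes 214081 to 26775257. The general urothelial markers summed to 4047 to 18807 CPM (without TMM scaling) in the urothelial layers and to 523.0 to 3793 CPM in fibroblasts and myofibroblasts. Chronic 2 held 58 fibroblasts, whose fibroblast markers summed to 1792 CPM against 5448 to 10596 CPM elsewhere, and 102 myofibroblasts, while chronic 1 held 92 myofibroblasts. Between 36 and 208 cell barcodes were shared by pairs of libraries. Within the conditions, Aldh3a1, Adh1, Gsta4, Gstm1, Mgst3, Prdx1 and Cbr1 were higher in intermediate cells of healthy 2, acute 2 and chronic 1 than in those of the other library of the same condition.

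The promoters of the listed genes were searched for the core of the antioxidant response element, written TGACNNNGC, on both strands. In windows of 250 bases before to 50 bases after RefSeq starts (build GRCm38.p6), 12 of the 46 windows of the 40 listed genes with an entry held a match, against 12.4% of 32851 windows of all genes. The matches lay in 11 genes: Abcc4, Aldh9a1, Gclm, Gstm5, Mgst1, Nfe2l2, Prdx1, Sod1, Srxn1, Txnrd1 and Ugdh. A match is a description of the letters and no evidence of binding. Gsr, Gclc, Aldh3a1, Akr1b3, Abcc1, Aldh2, Aldh7a1, Ephx2, Gsta4 and Hmox1 were not matched to an entry. The 5 matches below have flanks without an annotated exon, and are shown because Gclm, Prdx1 and Txnrd1 are textbook NRF2 targets, while Aldh9a1 and Sod1 carry the same letters. The matched bases are in capitals, and each stretch is read on the plus strand: chr1:167349878-167349938 for Aldh9a1, chr3:122245397-122245457 for Gclm, chr4:116685440-116685500 for Prdx1, chr16:90220680-90220740 for Sod1 and chr10:82859088-82859148 for Txnrd1.
Aldh9a1: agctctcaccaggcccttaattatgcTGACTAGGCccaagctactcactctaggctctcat
Gclm: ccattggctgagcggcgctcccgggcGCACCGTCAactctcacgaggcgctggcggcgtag
Prdx1: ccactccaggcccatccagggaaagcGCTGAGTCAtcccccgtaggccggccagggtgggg
Sod1: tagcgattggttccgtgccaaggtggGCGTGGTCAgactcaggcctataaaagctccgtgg
Txnrd1: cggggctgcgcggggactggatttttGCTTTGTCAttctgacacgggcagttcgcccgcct
Of these matches 4 read on the minus strand, and the match of Aldh9a1 reads on the plus strand. These genes are described below with their roles. Other genes that the results turn on are Aldh3a1 (chr11:61207537-61218421, plus strand), Aldh2 (chr5:121566027-121593824, minus), Gstt1 (chr10:75783813-75798584, minus), Gpx2 (chr12:76792333-76795554, minus) and Ugt2b34 (chr5:86889767-86906937, minus), in GRCm38.

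Across the urothelium, which runs from the basal layer to the superficial umbrella cells, more of the listed genes were called lower than higher at the outer step, and calls went both ways at the inner step. In intermediate against basal cells, 7 of the 49 genes were higher (16.2% of all 12241 genes tested) and 11 lower (9.75% of all genes), with a median log2 fold change of -0.11 against 0.05 over all genes. In superficial against intermediate cells, 7 were higher (17.3% of all genes) and 24 lower (24.8% of all genes), with a median of -0.40 against -0.06 over all genes. The 7 higher calls at the inner step became 4 without acute 2, and the 7 at the outer step became 4 without both chronic libraries. Calls are at an adjusted p below 0.05 by edgeR's quasi-likelihood test with library as a block and Benjamini-Hochberg adjustment over all genes. Median UMIs per cell were 4399 to 8944 in basal and 10266 to 21049 in superficial cells, and the part of that depth in these shares was not tested. Between basal and intermediate cells the cut is a score, and 7603 cells lay near it.

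Fibroblasts and myofibroblasts, the mesenchymal types under the urothelium, differed in fewer genes than the urothelial layers, listed or not. Calls over all 12241 genes were 2486, against 3178 at the inner and 5151 at the outer step. In fibroblasts against myofibroblasts, 7 genes were higher (10.3% of all genes) and 6 lower (10.0% of all genes), with a median log2 fold change of 0.12 against 0.05 over all genes. Comparing the mean of the 3 urothelial layers with the mean of both mesenchymal types, 33 genes were higher in the urothelium (45.6% of all genes) and 11 lower (36.7% of all genes). The median log2 fold change was 0.85 against 0.13 over all genes, and other scalings moved the median of all genes by between -0.14 and -0.21.

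**Figure D1:**
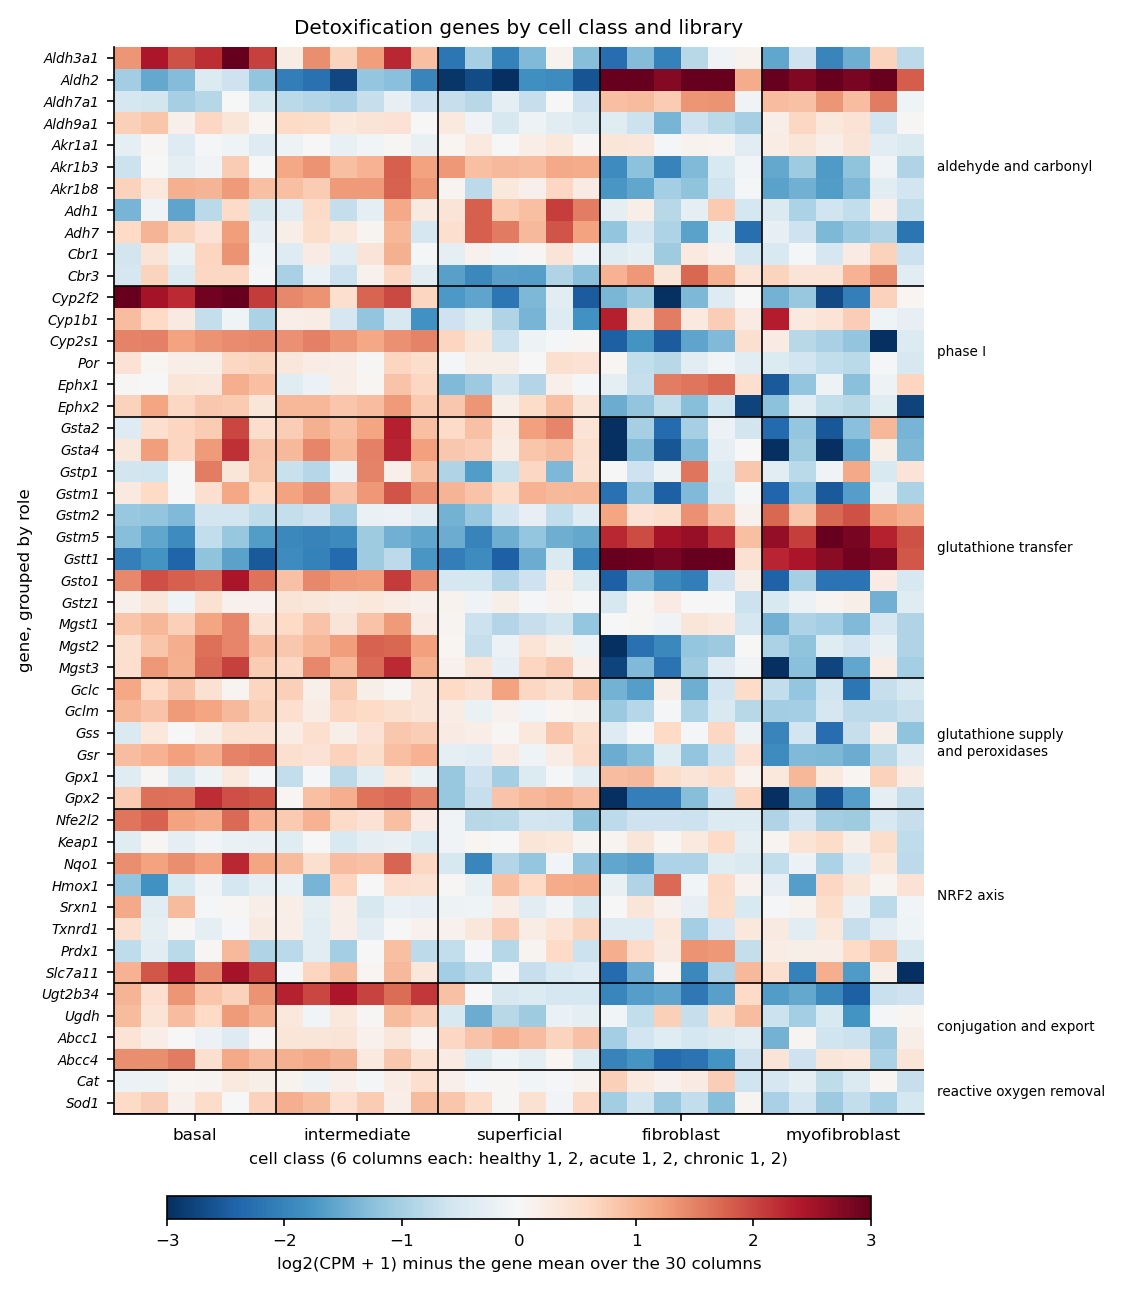
Each row is a listed gene, grouped by role, and each block of 6 columns is a cell class with the libraries healthy 1, 2, acute 1, 2 and chronic 1, 2; color is log2(CPM + 1) minus the mean of that gene over the 30 columns, cut at 3 either way. Aldh2, Gstm5 and Gstt1 are high in the mesenchymal types, Ugt2b34 is highest in intermediate cells, and Cyp2f2, Aldh3a1 and Slc7a11 are highest in basal cells.

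The mean level of each role is given as mean log2(CPM + 1) over its listed genes and described without a test. It stands for these genes only, since other genes of the same role, given below, did not always follow them. Phase I genes averaged 5.81 ± 0.17 (SD over the 6 libraries) in basal, 5.46 ± 0.21 in intermediate and 4.50 ± 0.29 in superficial cells. For glutathione supply and peroxidases the means were 7.52 ± 0.13, 7.24 ± 0.18 and 6.91 ± 0.30, and for the NRF2 axis 6.68 ± 0.19, 6.36 ± 0.22 and 6.01 ± 0.21. Glutathione transferases averaged 7.89 ± 0.38, 8.03 ± 0.36 and 7.34 ± 0.24, with intermediate above basal cells in each of the 6 libraries on this TMM scale but in 2 of the 6 on plain CPM. Conjugation and export genes stood at 7.14 ± 0.20, 7.28 ± 0.15 and 6.34 ± 0.20, and aldehyde and carbonyl genes at 6.94 ± 0.36, 6.89 ± 0.36 and 6.55 ± 0.27. In fibroblasts and myofibroblasts the phase I means were 4.40 ± 0.30 and 4.18 ± 0.16, and the conjugation and export means 5.49 ± 0.56 and 5.71 ± 0.38.

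**Figure D2:**
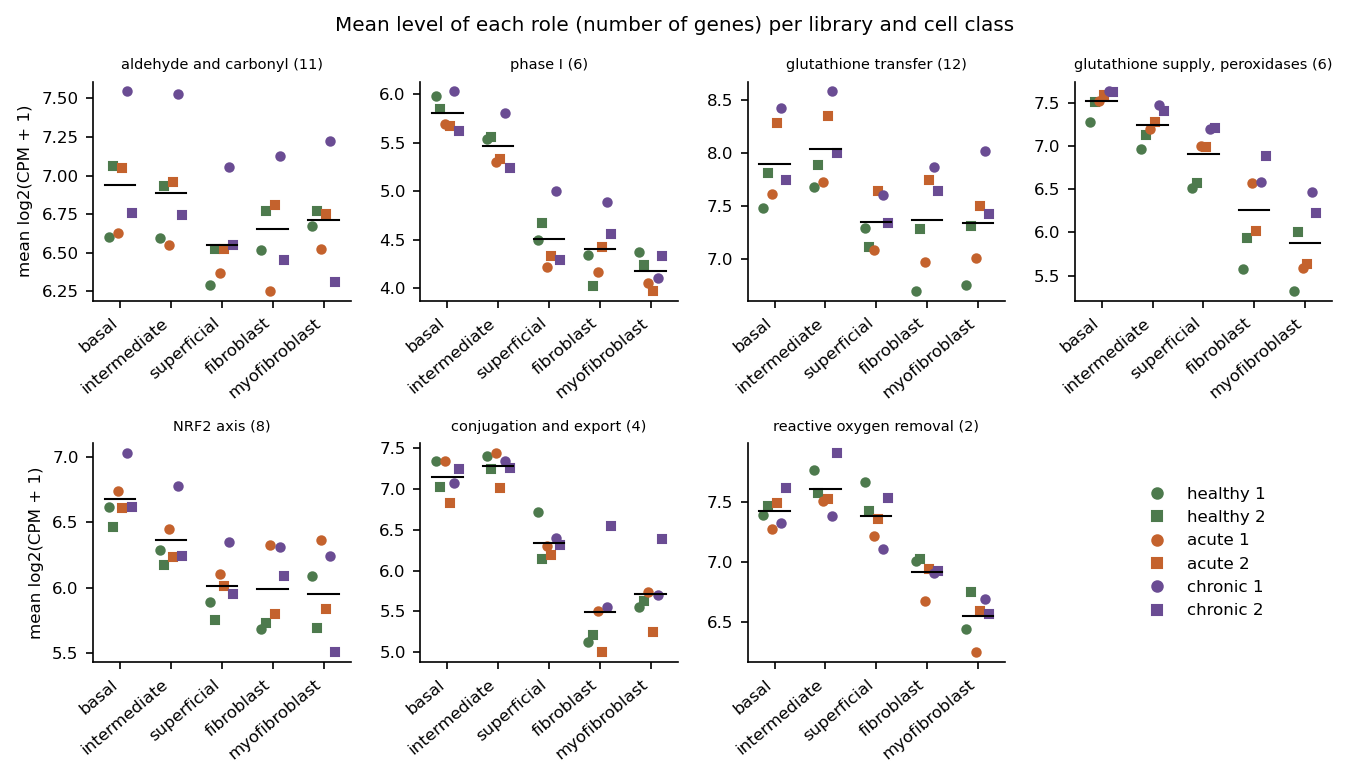
Each panel is a role with its number of genes, the y axis is mean log2(CPM + 1), each point is a library (circle, library 1; square, library 2; color, condition), and the black line is the mean of the 6 libraries. The means of the listed phase I genes fall from 5.81 in basal to 4.50 in superficial cells, while chronic 1 lies highest of the 6 libraries for aldehyde and carbonyl genes in each of the 5 classes shown.

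Among the aldehyde and carbonyl genes, Aldh3a1, a dehydrogenase of aldophosphamide and other aldehydes, declined outward through the urothelium. In basal cells its levels were 346.1, 742.6, 518.9, 641.9, 1394 and 578.0 CPM, in intermediate cells 161.8, 363.6, 219.3, 329.4, 664.5 and 258.7 CPM, and in superficial cells 30.2, 69.2, 33.2, 54.2, 149.6 and 56.2 CPM. Within each of the 6 libraries the order was basal, intermediate, superficial, and no superficial value reached the lowest intermediate value. The log2 fold change was -1.09 ± 0.16 (SE) in intermediate against basal cells (adjusted p = 1.28e-05) and -2.42 ± 0.18 in superficial against intermediate cells (adjusted p = 4.21e-11).

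Aldh2, the mitochondrial dehydrogenase of acetaldehyde, had the opposite distribution between tissues. Fibroblasts held 652.5, 526.7, 443.8, 561.0, 540.0 and 141.1 CPM and myofibroblasts 229.2 to 536.1 CPM, against 21.7 to 48.7 CPM in basal, 8.92 to 28.2 CPM in intermediate and 5.50 to 17.4 CPM in superficial cells. The groups did not overlap, and the urothelium was 25.6-fold lower, its superficial level in healthy 1 being at the level read as background below (log2 fold change -4.68 ± 0.17, adjusted p = 1.03e-17). Within the urothelium Aldh2 was lower in intermediate than in basal cells (log2 fold change -0.90 ± 0.24, adjusted p = 0.0079). Aldh7a1, a dehydrogenase of lysine breakdown, was also lower in the urothelium (-1.66 ± 0.10 on the log2 scale), and Aldh9a1, which oxidises aminoaldehydes, was higher (0.51 ± 0.08).

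Akr1b3, mouse aldose reductase, was higher outside the basal layer. Its levels were 698.1 to 1828 CPM in basal, 2023 to 3772 CPM in intermediate and 2031 to 2661 CPM in superficial cells, with no overlap between basal and either outer layer. In intermediate against basal cells the log2 fold change was 1.29 ± 0.19 (adjusted p = 1.80e-05). The related Akr1b8 was lower in superficial than in intermediate cells (-1.10 ± 0.14 on the log2 scale, adjusted p = 2.46e-07).

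Adh1 and Adh7, alcohol dehydrogenases that also act on retinol, were the called aldehyde and carbonyl genes with the largest rises at the outer step, from intermediate to superficial cells. Adh1 was at 110.4 to 491.6 CPM in basal, 201.9 to 731.7 CPM in intermediate and 435.4 to 1394 CPM in superficial cells, ranges that overlapped between libraries but kept this order within each library. The log2 fold changes were 0.73 ± 0.17 (adjusted p = 0.0025) and 1.15 ± 0.17 (adjusted p = 6.39e-06) for the inner and outer step. Adh7 differed at the outer step, where superficial cells were 1.11 ± 0.15 higher on the log2 scale (adjusted p = 3.65e-07). Cbr3, a carbonyl reductase, was lower in superficial than in intermediate cells (-1.37 ± 0.21) and lower in urothelium than in mesenchyme (-1.49 ± 0.13).

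Of phase I, Cyp2f2, a cytochrome P450 known from airway club cells, had the largest called fold change of the listed genes at the outer step. It stood at 142.5, 93.2, 78.2, 122.7, 146.9 and 70.9 CPM in basal cells, at 22.6 to 64.8 CPM in intermediate cells and at 1.99 to 12.555 CPM in superficial cells. The 3 layers did not overlap. The log2 fold changes were -1.42 ± 0.17 (adjusted p = 3.13e-07) and -2.98 ± 0.24 (adjusted p = 1.43e-10), the latter from 6 to 58 UMIs per superficial sum. Cyp2s1, an extrahepatic P450, was lower in superficial than in intermediate cells (-1.39 ± 0.19 on the log2 scale) and higher in urothelium than in mesenchyme (2.18 ± 0.18). Cyp1b1, a P450 induced through the aryl hydrocarbon receptor, was lower in the urothelium (-1.42 ± 0.17), and Ephx1, the microsomal epoxide hydrolase, was 3.86-fold higher in fibroblasts than in myofibroblasts (1.95 ± 0.32, adjusted p = 5.61e-05). That fold is over all conditions, and the myofibroblast sums held 28, 17, 25, 187, 9 and 25 UMIs of Ephx1. In chronic 2 fibroblasts were not higher, with 16 UMIs against 25 in sums of 215390 and 333835.

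Glutathione transferases split between urothelium and mesenchyme. Gstt1, a theta transferase, held 175.0, 134.8, 128.0, 249.1, 187.4 and 23.5 CPM in fibroblasts and 63.5 to 130.7 CPM in myofibroblasts, against 2.103 to 12.1 CPM in the urothelial layers. Even the low value of chronic 2, with 6 UMIs in 58 fibroblasts, lay above the urothelial range, and the urothelium was 27.0-fold lower (log2 fold change -4.75 ± 0.16, adjusted p = 1.96e-19). The superficial level of Gstt1 in acute 2 was at the level read as background below. Gstm5 was 16.9-fold lower in the urothelium (-4.08 ± 0.11, adjusted p = 2.12e-24), with 3.84 to 10.7 CPM against 35.3 to 169.3 CPM in the mesenchymal types. Gstm2, also of the mu class, was lower there too (-1.88 ± 0.11 on the log2 scale, adjusted p = 3.36e-14).

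The other direction was taken by 8 of the 12 transferases (45.6% of all genes), against 3 called lower in the urothelium (36.7% of all genes). Gsta4, an alpha transferase specialised for unsaturated aldehydes such as 4-hydroxynonenal, was at 3528, 5008, 3623, 5203, 8898 and 4284 CPM in intermediate cells and at 2103 to 3417 CPM in superficial cells. Its basal values, 2283 to 8315 CPM, overlapped both, and neither step was called (0.33 ± 0.34, adjusted p = 0.53, and -0.67 ± 0.34, adjusted p = 0.13). Gsto1, an omega transferase, was 3.56-fold lower in superficial than in intermediate cells (-1.83 ± 0.28 on the log2 scale, adjusted p = 1.67e-05). Each of the membrane-bound Mgst1, Mgst2 and Mgst3 was lower at that step too, by -1.32 ± 0.15, -1.35 ± 0.21 and -1.01 ± 0.27. Gstm1 was higher in intermediate than in basal cells (0.82 ± 0.23, adjusted p = 0.012). Gstp1, the pi transferase, which its close copy Gstp2 may share reads with, was lower in superficial than in intermediate cells (-0.71 ± 0.13, adjusted p = 8.75e-05), and its urothelial and mesenchymal means were not told apart (-0.16 ± 0.09, adjusted p = 0.11). Reads of Gsta2 and of the mu transferases may likewise be shared with near-identical copies.

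**Figure D3:**
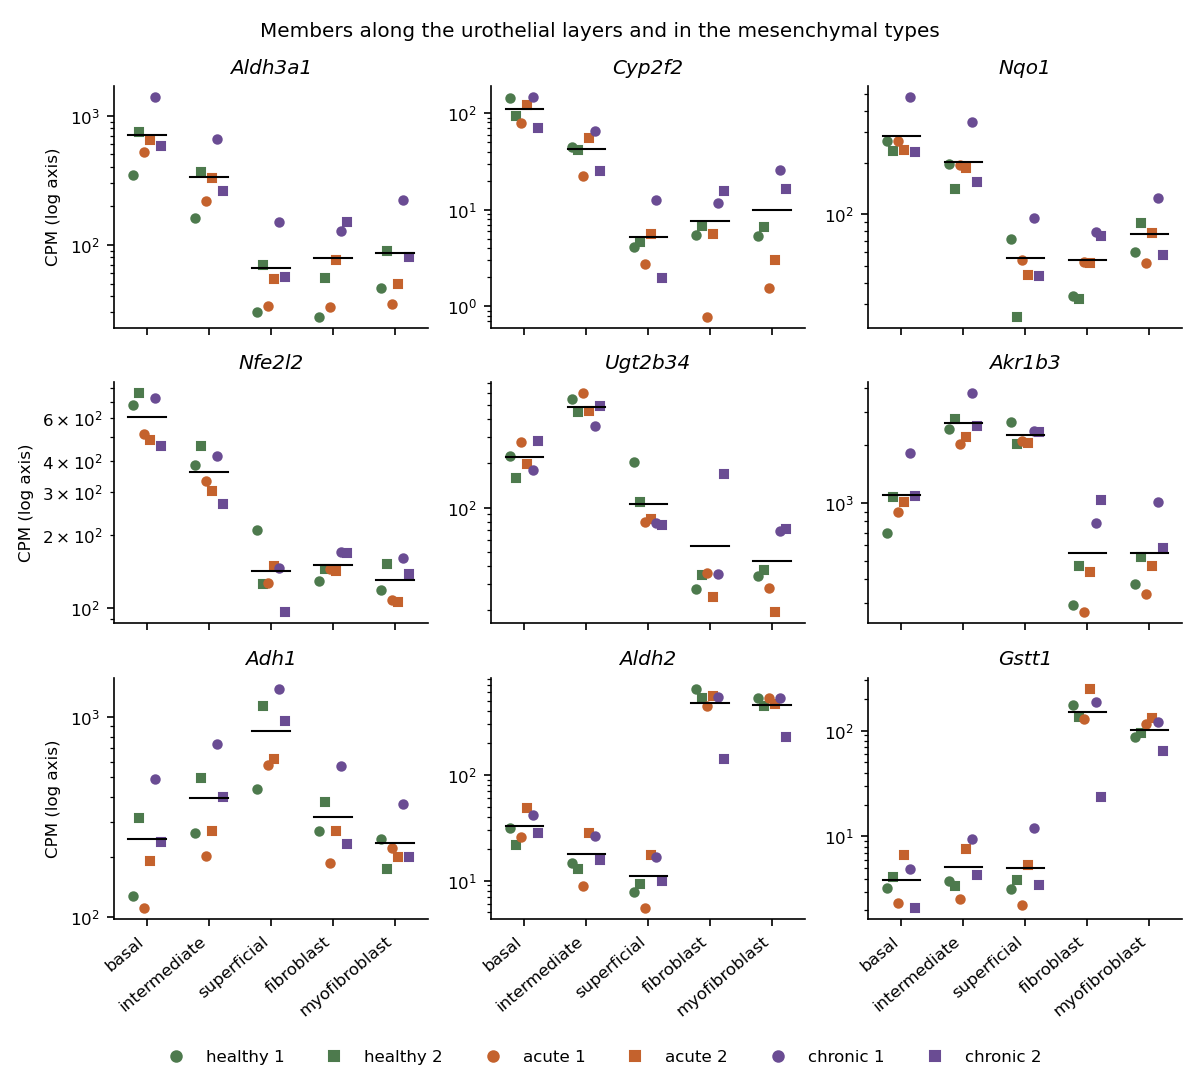
Each panel is a gene, the y axis is CPM on a log scale, the x axis the cell class, each point a library (circle, library 1; square, library 2; color, condition), and the black line the mean of the 6 libraries. Aldh3a1 and Cyp2f2 fall from basal to superficial cells in each library, Adh1 rises, Ugt2b34 peaks in intermediate cells, and Aldh2 and Gstt1 lie in the mesenchymal types.

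For glutathione supply, both subunits of glutamate-cysteine ligase, the first enzyme of glutathione synthesis, were higher in the urothelium than in the mesenchyme. The catalytic subunit Gclc held 73.4 to 157.9 CPM in basal, 71.8 to 118.5 CPM in intermediate and 96.0 to 161.9 CPM in superficial cells, and neither step between layers was called (-0.30 ± 0.20 and 0.34 ± 0.20 on the log2 scale, adjusted p = 0.30 and 0.19). The modifier subunit Gclm declined at both steps, by -0.54 ± 0.10 (adjusted p = 1.24e-04) and -0.44 ± 0.10 (adjusted p = 8.30e-04), from 161.6 to 237.3 CPM in basal to 85.3 to 113.4 CPM in superficial cells. Basal and superficial ranges of Gclm did not overlap. Against the mesenchymal types, Gclc was 1.56 ± 0.17 and Gclm 1.28 ± 0.08 higher on the log2 scale.

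Gsr, which regenerates reduced glutathione, was lower at each outward step (-0.54 ± 0.11, adjusted p = 3.59e-04, and -0.62 ± 0.11, adjusted p = 3.63e-05). Gpx2, an epithelial glutathione peroxidase, was 6.65-fold higher in the urothelium than in the mesenchyme (2.73 ± 0.21, adjusted p = 4.75e-11), and Gpx1, the ubiquitous one, was 1.81-fold lower (-0.85 ± 0.10, adjusted p = 8.48e-09). Gss, glutathione synthetase, was higher in fibroblasts than in myofibroblasts (1.15 ± 0.20, adjusted p = 4.77e-05).

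In the NRF2 axis, Nfe2l2 itself followed the basal side. Its levels were 677.6, 761.5, 513.9, 487.6, 724.6 and 460.2 CPM in basal cells, 266.4 to 460.5 CPM in intermediate cells and 96.0 to 208.1 CPM in superficial cells. Basal and superficial cells did not overlap, and the steps were -0.74 ± 0.12 (adjusted p = 2.34e-05) and -1.34 ± 0.12 (adjusted p = 4.95e-10) on the log2 scale. Keap1, the repressor of NRF2, was 27.8 to 38.1 CPM in intermediate and 35.7 to 49.7 CPM in superficial cells, higher by 0.44 ± 0.10 (adjusted p = 4.23e-04), with no call at the inner step (-0.13 ± 0.10, adjusted p = 0.36).

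The targets of NRF2 did not share one profile. Nqo1, a quinone reductase, fell outward from 230.1 to 482.8 CPM in basal and 140.7 to 342.8 CPM in intermediate cells to 25.4 to 95.0 CPM in superficial cells, a superficial range below all intermediate values (-0.51 ± 0.14, adjusted p = 0.0067, and -1.85 ± 0.15, adjusted p = 7.22e-11). Hmox1, heme oxygenase, ran the other way in each library, from 16.6 to 56.7 CPM in basal and 22.4 to 96.6 CPM in intermediate to 52.2 to 135.4 CPM in superficial cells (0.72 ± 0.18, adjusted p = 0.0029, and 0.58 ± 0.17, adjusted p = 0.0065). Slc7a11, the cystine importer, was at 16.4 to 47.0 CPM in basal, 7.15 to 15.6 CPM in intermediate and 3.20 to 7.25 CPM in superficial cells, the last from 5 to 29 UMIs per sum (-1.46 ± 0.22, adjusted p = 2.42e-05, and -1.18 ± 0.31, adjusted p = 0.0030). Prdx1, a peroxiredoxin, was lower in urothelium than in mesenchyme (-0.79 ± 0.11, adjusted p = 4.21e-07) in each of the 6 libraries, and ranged from 334.2 to 1322 CPM in the urothelial layers and from 415.3 to 1721 CPM in the mesenchymal types. Txnrd1, thioredoxin reductase, was higher at the outer step (0.45 ± 0.12, adjusted p = 0.0022), and Srxn1, sulfiredoxin, was lower at the inner one (-0.54 ± 0.15, adjusted p = 0.0061). A sum of 20 immediate-early and heat shock genes also fell outward in each library, whereas Hmox1 rose. It was 12091 to 18300 CPM in basal, 7940 to 11004 CPM in intermediate and 5506 to 7604 CPM in superficial cells (without TMM scaling). Its part in the layer differences of the NRF2 axis was not tested.

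Of the conjugation and export genes, Ugt2b34, a glucuronosyltransferase, marked the middle of the urothelium. It was at 224.7, 158.2, 280.9, 196.9, 180.2 and 281.8 CPM in basal cells, at 550.8, 443.7, 603.0, 452.4, 357.2 and 488.5 CPM in intermediate cells and at 204.4, 109.1, 79.2, 83.4, 77.9 and 76.6 CPM in superficial cells. No basal or superficial value reached the lowest intermediate one (1.15 ± 0.28, adjusted p = 0.0035, and -2.23 ± 0.29, adjusted p = 2.03e-06). Ugdh, which makes the UDP-glucuronic acid that such enzymes use, was lower at both steps (-0.49 ± 0.14 and -1.10 ± 0.14). Abcc4, an exporter of conjugates, was lower in superficial cells (-0.94 ± 0.16) and 4.78-fold lower in fibroblasts than in myofibroblasts (-2.26 ± 0.23, adjusted p = 1.24e-08), while Abcc1, another exporter, was higher in superficial cells (0.59 ± 0.13, adjusted p = 3.38e-04). Of both genes for reactive oxygen, Sod1, the cytosolic superoxide dismutase, was 2.55-fold higher in urothelium than in mesenchyme, and Cat, catalase, was higher in fibroblasts than in myofibroblasts (0.85 ± 0.14, adjusted p = 3.86e-05).

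Between the mesenchymal types, the remaining large differences were of Mgst1, higher in fibroblasts (1.05 ± 0.16, adjusted p = 9.12e-06), and of Cyp2s1 (-1.21 ± 0.33, adjusted p = 0.00945), Aldh9a1 (-1.04 ± 0.13, adjusted p = 5.23e-07) and Mgst2 (-0.95 ± 0.25, adjusted p = 0.00823), all lower there. Nqo1 was lower too (-0.66 ± 0.18, adjusted p = 0.00709). Cyp2s1 rested on 9, 17, 4, 22, 21 and 8 UMIs in fibroblasts and 111, 11, 7, 97, 0 and 6 in myofibroblasts. Scaled by the sums, it was not lower in fibroblasts of chronic 1 and chronic 2. Mgst2 and Nqo1 were not lower in chronic 2, with 37 and 19 UMIs in fibroblasts against 28 and 21, in sums of 215390 and 333835. Aldh3a1, Slc7a11, Keap1, Gclm, Nfe2l2, Ugt2b34, Gstp1, Hmox1, Gsta4 and Gclc were not called, with log2 fold changes from -1.26 for Slc7a11 to 0.34 for Gclc. Against the mesenchyme, the urothelium was higher in Ugt2b34 (2.59 ± 0.23, adjusted p = 6.21e-10), Gsta4 (2.57 ± 0.25, adjusted p = 3.22e-09) and Cyp2f2 (2.47 ± 0.21, adjusted p = 3.05e-11). It was also higher in Aldh3a1 (1.73), Slc7a11 (1.42), Nqo1 (1.23) and Nfe2l2 (1.19), and lower in Keap1 (-0.33, adjusted p = 1.26e-04), while Hmox1 was not called (-0.21, adjusted p = 0.119). The mesenchymal sums held 1 to 32 UMIs of Cyp2f2 and 0 to 46 of Slc7a11. In fibroblasts Gsta4 and Ugt2b34 were near the level read as background below, and the part of background in these folds was not tested.

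Some of these calls were lost under at least 1 alternative setting or without 1 library. At the inner step these were Cbr3, Gsta2, Gstm1, Hmox1, Nqo1, Sod1, Srxn1 and Ugdh, and at the outer step Akr1a1, Ephx2, Gpx2, Gsta2, Hmox1, Slc7a11, Sod1 and Txnrd1. Between the mesenchymal types these were Cyp2s1, Gsr, Gstt1, Mgst2 and Nqo1, and between urothelium and mesenchyme Adh1, Akr1a1, Cbr1, Gstz1 and Txnrd1. No call between cell classes turned its direction in the alternatives that were run.

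Other genes of the same pathways were taken from a wider list, of which 102 were tested. At the inner step 29 were higher and 9 lower (16.2% and 9.75% of all genes), and at the outer step 15 were higher and 32 lower (17.3% and 24.8% of all genes). Between fibroblasts and myofibroblasts 21 were higher and 11 lower (10.3% and 10.0% of all genes), and between urothelium and mesenchyme 55 were higher and 37 lower (45.6% and 36.7% of all genes). Their median log2 fold changes were 0.13, -0.07, 0.15 and 0.28, against 0.05, -0.06, 0.05 and 0.13 over all genes. Within roles, they did not always follow the listed genes. Between urothelium and mesenchyme, other phase I genes had a median of -0.655 (listed 1.46), and other glutathione supply and peroxidase genes -0.002 (listed 1.42). In the remaining roles both medians were positive. At the inner step the same roles had medians of 0.11 and 0.14 (listed -0.15 and -0.42), and at the outer step -0.14 and 0.17 (listed -0.61 and -0.36). Fmo5, a flavin monooxygenase, was higher in intermediate (mean 2229 CPM) than in basal cells (802.8 CPM; 1.495 ± 0.27 on the log2 scale, adjusted p = 2.55e-04), and Aldh1a1, a retinal dehydrogenase that also oxidises aldophosphamide, was lower (-1.17 ± 0.11, adjusted p = 3.85e-09). Gstm4 was higher at that step too (0.94 ± 0.16, adjusted p = 7.36e-05) and Gsta3, an alpha transferase, lower (-0.60 ± 0.13, adjusted p = 5.27e-04). The glutaredoxin Glrx was higher in superficial than in intermediate cells (2.16 ± 0.13, adjusted p = 6.66e-14), as was the biliverdin reductase Blvra (1.02 ± 0.12, adjusted p = 4.97e-08). Idh1, a source of NADPH, was lower there (-1.72 ± 0.25, adjusted p = 6.71e-06), as was Gsta3 (-1.31 ± 0.14, adjusted p = 4.27e-09). In the mesenchymal types, Aldh1a2, which makes retinoic acid, was lower in fibroblasts (-3.53 ± 0.36, adjusted p = 1.38e-07) as was Gpx3 (-2.38 ± 0.43, adjusted p = 2.55e-04), and the monooxygenases Fmo2 (2.40 ± 0.36, adjusted p = 2.34e-05) and Fmo1 (1.46 ± 0.18, adjusted p = 2.59e-07) were higher. Gpx7 and the secreted peroxidase Gpx3 were lower in urothelium than in mesenchyme (-5.63 ± 0.19, adjusted p = 3.26e-18, and -4.73 ± 0.29, adjusted p = 1.20e-12), and the exporter Abcc3 (3.04 ± 0.15, adjusted p = 7.32e-16) and Aldh1a7 (3.01 ± 0.19, adjusted p = 3.27e-13) were higher.

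Low levels of urothelial genes in mesenchymal cells were set against RNA of genes that mesenchymal cells should lack. A reporter sum of 6 genes of umbrella cells (the uroplakins Upk1a, Upk1b, Upk2, Upk3a and Upk3b, and Krt20) stood in fibroblasts at 6.07%, 18.67%, 8.98%, 15.89%, 25.45% and 41.32% of its level in intermediate cells. Gstm1 in fibroblasts was at 9.52%, 17.72%, 10.95%, 18.0%, 21.8% and 46.98% of intermediate cells and Gsta4 at 5.86%, 15.62%, 9.13%, 15.52%, 18.84% and 53.59%. Both were between 0.74 and 1.57 times the reporter in each library. Ugt2b34 was at or below the reporter in fibroblasts of 5 of 6 libraries. In all 6 libraries 10 of the 49 genes stayed under 2 times the reporter in fibroblasts and 7 in myofibroblasts, while 19 and 18 stayed above 2 times. A level at or below the reporter is read as background here. The reporter genes were higher in superficial than in intermediate cells (18879 against 9395 CPM in healthy 1, without TMM scaling), whereas Ugt2b34, Gsto1 and Mgst2 were lower there. The share of each layer in the background was not tested, so this reading is a rule of thumb. In the reverse direction, Gstt1 in superficial cells was at 1.58% to 11.25% of fibroblasts and the mesenchymal reporter at 0.66% to 2.86%. In acute 2 it was at 1.85%, below the reporter (2.27%) and so at a level read as background. Aldh2 in superficial cells was at 1.16%, 1.59%, 1.11%, 2.67%, 2.83% and 5.36% of fibroblasts, against a reporter of 1.22%, 1.49%, 0.66%, 2.27%, 1.5% and 2.86%, and thus near it in both healthy libraries. Myofibroblast markers in the urothelial layers summed to 357.3 to 407.0 CPM in acute 2 and to 17.8 to 74.8 CPM in the other libraries.

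**Figure D4:**
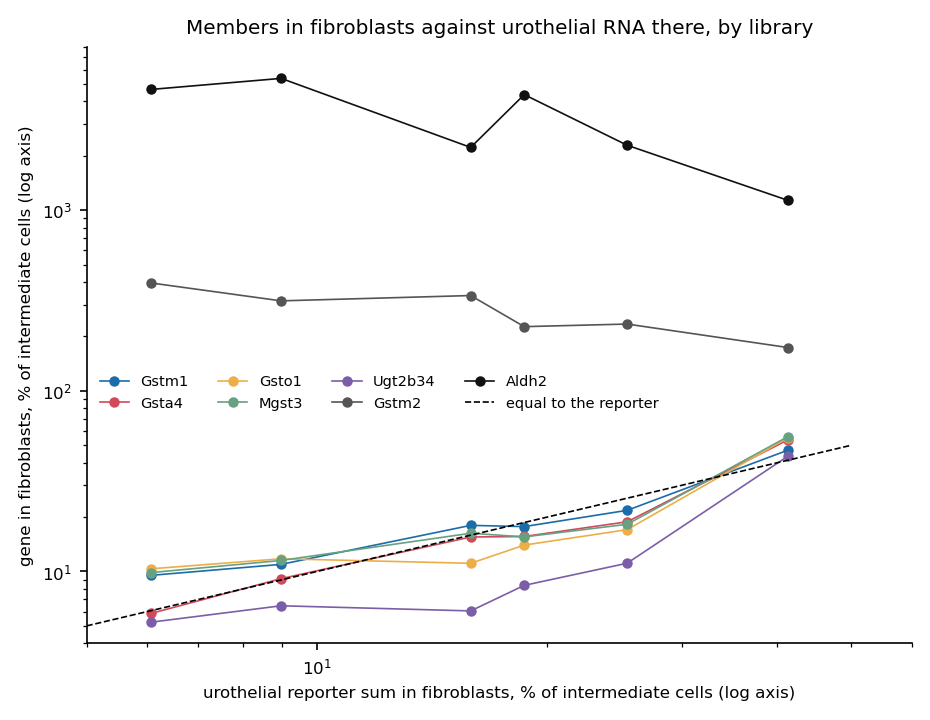
Each point is a library, with the urothelial reporter sum in fibroblasts on the x axis and a gene's level in fibroblasts on the y axis, both in percent of intermediate cells on log scales, and the dashed line marks equal values. Gstm1, Gsta4, Gsto1, Mgst3 and Ugt2b34 lie near or under the line up to 41.32% in chronic 2, whereas Gstm2 and Aldh2 lie above 100% in each library.

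Injury by CPP was then compared within each class, acute and chronic each against the same healthy libraries, so that both comparisons share their controls. No listed gene passed the adjusted threshold in any of the 5 classes by edgeR, with 0 of 241 tests called after acute injury (0.00365% of all tests) and 0 of 241 after chronic injury (0.00182% of all tests). DESeq2 called 2 acute and 6 chronic tests of listed genes, where over all genes it called 69 and 130 of 54827 tests and edgeR 2 and 1. The listed calls were all higher: Gpx2 in superficial cells and Ephx1 in fibroblasts after both injuries, and after chronic injury also Ephx1 in intermediate cells and Gpx2, Gsto1 and Mgst2 in fibroblasts. The last 3 stood in fibroblasts of chronic 1 at 22.75%, 17.04% and 15.78% of intermediate cells, below the urothelial reporter (25.45%) and so at a level read as background. In chronic 2 they were at 69.56%, 55.06% and 53.51%, above the reporter (41.32%), and its part in these calls was not tested. At an unadjusted p below 0.05, 18 acute tests passed by edgeR (7.47%, against 2.74% of all tests), 15 of them higher, and 48 chronic tests (19.9%, against 5.69% of all tests), 43 of them higher. How many of all tests went higher was not counted. The chronic tests were 14 in fibroblasts, 11 in myofibroblasts, 8 in intermediate, 8 in superficial and 7 in basal cells. Without healthy 1 the chronic count was 20, and that over all genes went from 3119 of 54827 to 1796 of 56536 tests. With 2 libraries against 2, an exact permutation test of a single value cannot go below p = 0.33.

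Counting the tests in which both injured libraries lay beyond both healthy ones needs no model. In the urothelial layers after acute injury 30 of 147 were higher (13.7% of all tests) and 25 lower (14.5% of all tests). After chronic injury 50 were higher (15.6% of all tests) and 14 lower (16.5% of all tests). In fibroblasts and myofibroblasts 19 of 94 were higher after acute injury (14.1% of all tests) and 11 lower (16.9% of all tests), and after chronic injury 39 were higher (16.5% of all tests) and 8 lower (23.3% of all tests). The urothelial reporter was also higher in fibroblasts of both chronic libraries than in the others, and its part in the chronic mesenchymal counts was not tested.

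Among the glutathione genes, Gpx2 in superficial cells came closest to a call. It was at 44.8 and 61.5 CPM in healthy, 182.4 and 200.3 CPM in acute and 209.5 and 190.3 CPM in chronic libraries, and injured and healthy libraries did not overlap. The log2 fold changes were 1.86 ± 0.24 (adjusted p = 0.055) and 1.92 ± 0.25 (adjusted p = 0.081), and DESeq2 called both. With classes made without integration the chronic change was 2.52 ± 0.36 and called (adjusted p = 0.00277), while acute 2 had too few superficial cells for a sum there, so that no acute value is given. Healthy 1 had few there too, at most 26 cells in 1 superficial cluster and 1 in the other, against 213 in the main classes. Intermediate cells had 103.5 and 186.8, then 215.3 and 311.3, then 327.3 and 284.5 CPM, again without overlap (0.86 ± 0.32 and 1.08 ± 0.32, adjusted p = 1 and 0.97). Basal cells overlapped after acute injury, with 170.5 and 316.7 CPM in healthy against 313.1 and 470.4 CPM.

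Gsr was higher in both injured groups in each urothelial layer without overlap, for example 83.7 and 80.7 CPM in healthy superficial cells against 119.4 and 94.1 CPM after acute and 118.6 and 151.3 CPM after chronic injury. Gstp1 was at 84.8 and 81.9 CPM in healthy basal cells, 124.3 and 360.3 CPM after acute and 161.6 and 223.5 CPM after chronic injury, and acute 2 held the highest value in each of the 5 classes. Its log2 fold changes in basal cells were 1.54 ± 0.45 and 1.21 ± 0.45 (adjusted p = 1 and 0.97), and the acute one was called without acute 1, at 2.11. Mgst2 in basal cells was at 206.0 and 259.3 CPM in healthy, 312.4 and 460.6 CPM after acute and 405.4 and 277.3 CPM after chronic injury, and did not overlap either. Gsta4 did overlap in basal cells, where the changes were 0.13 ± 0.48 and 0.82 ± 0.48 (adjusted p = 1 and 0.97).

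For Hmox1, the injured libraries lay above both healthy ones in all 5 classes after both injuries. In superficial cells it was at 62.2 and 52.2 CPM in healthy, 114.7 and 92.8 CPM in acute and 134.2 and 135.4 CPM in chronic libraries (0.85 ± 0.24 and 1.23 ± 0.24 on the log2 scale, adjusted p = 1 and 0.60). Fibroblasts were at 52.2 and 32.3, then 201.9 and 57.6, then 91.1 and 66.6 CPM, with acute 1 far above acute 2. A sum of 20 immediate-early and heat shock genes stood there at 26808 and 21367, then 31457 and 11566, then 33715 and 26375 CPM (without TMM scaling). Its part in the Hmox1 levels was not tested. Nqo1, by contrast, was at 266.7 and 234.1 CPM in healthy basal cells, 267.0 and 236.4 CPM after acute and 482.8 and 230.1 CPM after chronic injury, and the groups overlapped (0.01 ± 0.34 and 0.50 ± 0.34, adjusted p = 1 and 0.98).

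Among the regulators, Nfe2l2 in intermediate cells was at 385.4 and 460.5 CPM in healthy, 331.6 and 302.7 CPM in acute and 418.8 and 266.4 CPM in chronic libraries (-0.42 ± 0.25 and -0.30 ± 0.25, adjusted p = 1 and 0.97), the acute pair below both healthy values. For Keap1 the log2 fold changes in the 3 layers ran from -0.19 to 0.24 after either injury. Gclc in superficial cells was at 106.1 and 96.0, then 161.9 and 107.9, then 97.4 and 125.9 CPM (0.41 ± 0.26 and 0.14 ± 0.26), and Gclm changed by 0.25 ± 0.19 and 0.06 ± 0.19 in intermediate cells. Slc7a11 in basal cells was at 16.4 and 30.2 CPM in healthy, 40.5 and 22.2 CPM in acute and 47.0 and 34.5 CPM in chronic libraries (0.41 ± 0.39 and 0.77 ± 0.41, adjusted p = 1 and 0.97).

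**Figure D5:**
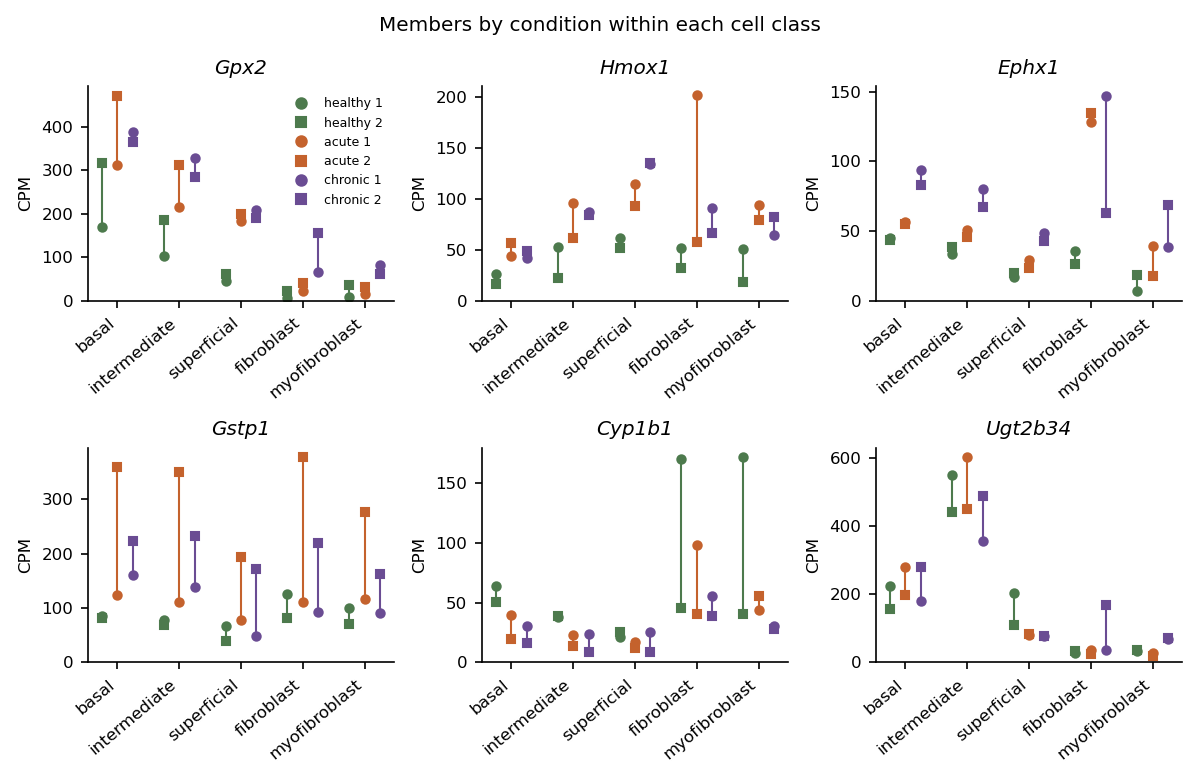
Each panel is a gene, the y axis is CPM, and within each cell class the 2 libraries of a condition are joined by a line (circle, library 1; square, library 2; color, condition). Gpx2 in superficial cells goes from 44.8 and 61.5 CPM in healthy to 182.4 to 209.5 CPM in the injured libraries, and Hmox1 lies above both healthy values in each class.

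For the aldehyde and phase I genes, injury went both ways. Ephx1 was at 44.8 and 43.9 CPM in healthy, 56.3 and 55.3 CPM in acute and 94.0 and 82.9 CPM in chronic basal cells, and at 35.8 and 26.6, then 128.0 and 134.6, then 147.0 and 62.7 CPM in fibroblasts. Neither class overlapped, and the largest log2 fold changes were 2.07 ± 0.43 in acute fibroblasts (adjusted p = 0.36), which DESeq2 called, and 2.32 ± 0.64 in chronic myofibroblasts (adjusted p = 0.58). Akr1b8 in intermediate cells was at 477.2 and 429.5, then 612.3 and 614.9, then 863.7 and 627.1 CPM, without overlap.

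Aldh3a1 overlapped between conditions in each urothelial layer, and its 2 healthy basal values, 346.1 and 742.6 CPM, enclosed both acute ones. Its changes in basal cells were 0.09 ± 0.46 and 0.85 ± 0.47 on the log2 scale (adjusted p = 1 and 0.97). Lower in injured libraries were Cyp1b1, with 63.8 and 50.9 CPM in healthy, 40.02 and 19.8 CPM in acute and 30.4 and 16.5 CPM in chronic basal cells (-0.94 ± 0.39 and -1.37 ± 0.42, adjusted p = 1 and 0.85), and Aldh9a1, whose injured libraries lay below both healthy ones in each urothelial layer after both injuries. Cyp2s1 was below both healthy libraries in basal and superficial cells after both injuries, but its chronic superficial change of -0.56 turned to 0.72 ± 0.52 with classes made without integration.

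Ugt2b34 in superficial cells was at 204.4 and 109.1 CPM in healthy, 79.2 and 83.4 CPM in acute and 77.9 and 76.6 CPM in chronic libraries, without overlap (-0.95 ± 0.29 and -1.03 ± 0.29, adjusted p = 1 and 0.92). With classes made without integration the chronic change was 1.06 ± 0.34 (adjusted p = 0.25), so its direction depended on how superficial cells were classed. Of 48 listed genes tested in superficial cells both ways, 11 turned sign after chronic injury. Without integration the superficial cells of acute 2, at most 17, fell below the minimum of 20 for a sum. Those of healthy 1 were at most 26 in 1 superficial cluster and 1 in the other, against 213 in the main classes. In basal cells Ugt2b34 overlapped, with changes of 0.32 ± 0.31 and 0.28 ± 0.32. In fibroblasts it was at 27.8 and 34.6 CPM in healthy libraries and at 35.3 and 168.5 CPM after chronic injury, the last in the library whose urothelial reporter was at 41.32%.

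Whether layers responded differently was tested as the change of the difference between neighbouring layers, taken within each library. After acute injury no listed gene was called (0.0352% of all tests, either direction). After chronic injury 1 was called (0.043% of all tests), Ugt2b34 between intermediate and basal cells. The log2 difference of intermediate minus basal was 1.29 and 1.482 in healthy, 1.10 and 1.20 in acute and 0.98 and 0.79 in chronic libraries. Both chronic values lay below both healthy ones, and the change was -0.52 (adjusted p = 0.0455). The call was lost under DESeq2, a stricter cell filter, classes made without integration, cycling cells kept and cells near the basal cut left out, and without healthy 2 (-0.43), chronic 1 (-0.62) or chronic 2 (-0.36). Gpx2 missed the threshold after acute injury, with a change of 0.96 in the difference of superficial minus intermediate (adjusted p = 0.064).

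Macrophages and endothelial cells were summed too and entered no test. Hmox1, which breaks down heme in macrophages, was at 179.4, 202.5, 489.9, 295.1, 220.4 and 275.0 CPM there, and both injured pairs lay above the healthy pair. Slc7a11 in macrophages ranged from 6.12 to 84.4 CPM over the libraries. Ephx1 in endothelial cells was at 25.9 CPM in healthy 1 and at 108.0 to 187.7 CPM in the injured libraries, while healthy 2 held 15 endothelial cells, too few for a sum. In these sums the 6 urothelial markers together were at 1280 CPM in healthy 1 and at 3131, 1822, 4179 and 6286 CPM in the injured libraries, and the 6 endothelial markers at 5312 CPM and at 3038, 4671, 2874 and 1237 CPM. Their part in the levels of Ephx1 was not tested.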

How the data were processed

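The deposited tables hold UMI counts per gene and cell for 6 libraries, 2 per condition, which the authors made with Cell Ranger on the mm10 build. The tables of healthy 1 and acute 1 list no gene seen in fewer than 8 and 6 cells, and acute 2 lists more genes (20180) than the others, so only the 14338 genes listed in all tables were tested. Barcodes needed more than 500 detected genes and less than 10% of UMIs from mitochondria, and doublets were called at 0.8% per 1000 cells and removed, together with the whole of 1 mesenchymal cluster, of which 42.42% were called doublets (2091 cells, 1654 of them from acute 2), since clusters above 33.3% were left out. This kept 49725 of 55398 cells. Libraries were integrated with Seurat 5.3.0 and sctransform 0.4.2 on 3000 genes and clustered with leidenalg 0.10.2 at a resolution of 0.8. Kept out of this were 160 genes, namely the listed genes, the wider pathway list and 4 Y-linked genes. Classes were named from marker genes, and basal and intermediate cells divided by a score.

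Counts were summed per library and class (at least 20 cells) and tested with edgeR 4.0.16 (R 4.3.3), its quasi-likelihood test, TMM factors and filterByExpr, with Benjamini-Hochberg adjustment over all genes of a comparison. Class comparisons used 1 fit over 5 classes with library as a block, injury comparisons 1 fit per class, and layer by injury comparisons library, layer and their interaction with condition. The scripts were tested on simulated data. Alternatives were DESeq2 1.42.0, other scalings, no low-count filter, other cell filters and classes, a replicate block, and each library left out.

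The listed genes and the wider pathway list were chosen with earlier results of these data known. All listed genes could be named. Full statistics were given for called genes with the 4 largest rises and falls of a comparison, and values for Aldh3a1, Ugt2b34, Nqo1, Hmox1, Gclc, Gclm, Slc7a11, Nfe2l2, Keap1, Gstp1 and Gsta4 whether called or not. Of the wider list, the 2 largest called rises and falls with a mean of at least 50 CPM were named. Other genes named with statistics in the text were chosen after their values were seen.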

Additional observations from a re-analysis of the deposited data

Results flagged for a closer look

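The chronic change of Ugt2b34 in the difference of intermediate minus basal cells, -0.52 on the log2 scale, passed the test of the difference itself between layers.

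Cyp4b1, a cytochrome P450 left out of the tests, had 29 UMIs in acute 2 and 8 in chronic 1, against 3 in healthy 2 and 2 in chronic 2, and was not listed in healthy 1 and acute 1. Of these, 15, 8, 2 and 2 UMIs in the same order were in endothelial cells, of which acute 2 held 327, chronic 1 27, healthy 2 15 and chronic 2 26.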

How the results depend on the processing

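The counts of listed genes called between cell classes in both directions together stayed within 1.5 times the counts given under each alternative run, as did those in 1 direction, except the higher calls of intermediate against basal cells (7, but 4 without acute 2) and of superficial against intermediate cells (7, but 4 without both chronic libraries). Without 1 library they were 15 to 18 (intermediate against basal), 27 to 30 (superficial against intermediate), 10 to 14 (fibroblasts against myofibroblasts) and 43 to 46 (urothelium against mesenchyme), and without both chronic libraries, chosen after seeing the data, 16, 25, 14 and 43. Plain CPM moved the mean level of the 49 genes by less than 1 SD in each of the 5 classes compared, while in endothelial cells, outside the comparisons, it went from 5.89 ± 0.176 to 6.18. For acute injury, where edgeR called 0 listed genes and 2 over all genes, DESeq2 called 2 (69 over all genes), no low-count filter 1 (69), and leaving out 1 library 0 to 2 (2 without acute 1, where calls over all genes went from 2 to 247). For chronic injury, where edgeR called 0 and 1 over all genes, DESeq2 called 6 (130), no low-count filter 3 (75), no integration 4 (15), and leaving out 1 library 0 to 4 (4 without healthy 2, where calls over all genes went from 1 to 49). For the acute layer differences, with 0 called and 9 over all genes, no low-count filter gave 3 (31), a stricter cell filter 1 (45), cycling cells kept 1 (21), cells near the cut left out 1 (13), and leaving out 1 library 0 to 4 (4 without healthy 2, with calls over all genes from 9 to 210). For the chronic ones, with 1 called and 11 over all genes, no low-count filter gave 3 (30), no integration 4 (116), and DESeq2, a stricter cell filter, cycling cells kept and cells near the cut left out 0 each (4, 21, 7 and 13), and leaving out 1 library 0 to 5 (5 without healthy 2, with calls over all genes from 11 to 203). The chronic change of Ugt2b34 in superficial minus intermediate cells reversed from -0.74 to 1.18 without integration, and the cause was not tested. Leaving out 1 library leaves 1 in its condition, assumed to vary like the others. The authors handled and sequenced the 6 samples in batches, but the sample labels name none, and the main injury fits hold no batch term. The replicate numbers did not pair the libraries (correlations of deviations over 6123 genes 0.44, -0.50 and -0.38), and the replicate block called 0 listed genes after either injury. A crossed pairing, added after seeing the data, called 1 acute and 2 chronic tests of listed genes, 16 and 23 over all genes, and 77 chronic tests of listed genes at an unadjusted p below 0.05 (5006 of 54827 over all genes, against 48 and 3119 without it). With 2 libraries per condition and 58 to 102 mesenchymal cells in some chronic sums, injury differences below the spread between libraries were not detectable.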
